A study of Mus musculus with 8 samples.

Results

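Strand symmetry of CpG methylation was examined at 268709 autosomal CpGs of the mouse genome, which were 5.16% of the 5202765 autosomal CpGs listed for any mouse of the series. A CpG reads the same on both strands, so each site holds 1 cytosine on the forward strand (F) and 1 on the reverse strand (R), at the next base. A CpG was a member when both cytosines were listed with 20 or more reads each for all 8 mice. Both cytosines were listed with 10 or more reads in all mice at 283972 CpGs, so the read minimum removed 15263. The rule used coverage and position only, not the methylation level.

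The cells were hematopoietic stem cells, the bone marrow cells from which all blood lineages arise, sorted by FACS as c-Kit+, Sca-1+ and CD150+ cells that were Lin-, Flk2- and CD48-, and not cultured. The strain was C57BL/6. The 4 knockout mice carried Atg12 flox/flox with Mx1-Cre. Atg12 is a ubiquitin-like protein needed for autophagosome formation, and Mx1-Cre is an interferon-inducible Cre that is active in blood cells and in other tissues such as liver. The 4 control mice are described in the series' design as Atg12 flox/flox without Cre, whereas their genotype label reads WT, so whether they carry the flox alleles is unclear. All 8 mice were injected with poly(I:C), an inducer of interferon, at 4 weeks of age, and cells were taken 2 to 3 months later. Each library came from 1 mouse. The assay was ERRBS (enhanced reduced representation bisulfite sequencing): restriction fragments are treated with bisulfite, which converts unmethylated cytosine and leaves methylated cytosine, and are then sequenced. The level of a cytosine is the percentage of its reads that kept C.

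Maintenance methylation is the process that makes CpG methylation symmetric. After DNA replication the parental strand is methylated and the daughter strand is not, UHRF1 binds such hemimethylated CpGs, and DNMT1 methylates the daughter strand. In the standard form of reduced representation libraries, the enzyme MspI cuts at CCGG, the recessed ends are filled in with unmethylated cytosine, and adapters are ligated. The filled-in cytosine lies in the CpG of the cut site, on the strand whose 3′ end was extended. The labels name neither the enzyme nor a trimming step.

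The sequences below are stretches of RefSeq promoter windows (GRCm38.p6, plus strand) where a CpG with a higher F level was followed by a CpG with a higher R level. They are shown as examples of stretches, wholly before the start site, whose ends carry opposite strand differences. They were chosen after the values were seen and are not a ranking by size. The higher strand averaged 84.15 to 99.59% at the end CpGs of the printed stretches. Paired stretches of Gm40881, Slc7a7 and Tmem267 also lie wholly before the start site and are not printed. Their higher strands averaged only 31.03 to 55.74%, so the examples show the pairs with high levels. Capitals mark CCGG, which is its own reverse complement, and the CpG of each capital stretch is a member. Sycp1 encodes a synaptonemal complex protein of meiosis, Naa11 an N-terminal acetyltransferase (its stretch also lies in the window of 4930467D21Rik) and Capn9 a calpain protease. Gm38948 and Gm11946 are RefSeq gene models that lie inside Bicra and Smtn.
Sycp1, chr3:102936147-102936198: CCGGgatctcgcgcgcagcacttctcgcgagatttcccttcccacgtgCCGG
Naa11, chr5:97392350-97392402: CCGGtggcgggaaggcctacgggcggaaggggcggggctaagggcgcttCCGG
Gm38948, chr7:15980237-15980288: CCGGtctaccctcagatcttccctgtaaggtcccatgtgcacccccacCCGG
Capn9, chr8:124575963-124576017: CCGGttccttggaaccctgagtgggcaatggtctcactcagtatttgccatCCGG
Gm11946, chr11:3532663-3532714: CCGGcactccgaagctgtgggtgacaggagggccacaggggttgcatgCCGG
A CpG outside CCGG with a large difference is shown for contrast, with the CpG in capitals, from the window of the RefSeq gene model Gm52183.
Gm52183, chr15:83694534-83694575: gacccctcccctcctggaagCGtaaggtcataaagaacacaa

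The libraries listed 2038266 (knockout 45) to 3366162 (knockout 25) cytosines, none with fewer than 10 reads. At the members the median coverage per strand ran from 190 reads in knockout 28 to 284 reads in control 34, and F held 49.8 to 49.9% of the reads in every mouse. Reads carry no molecular identifiers, so intervals made from reads cover counting error only. Cytosines on the Y chromosome made up 7.90 to 9.01 per 10000 listed in the knockouts and 1.15 to 1.83 in the controls. Genotype and Y content therefore cannot be told apart in any comparison of the groups. The tables hold methylation levels only, so neither the Atg12 deletion nor the cell markers could be checked in them.

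Members were mostly unmethylated CpGs of CpG-rich sequence. Their mean level was 12.8%, and 81.9% of them had a mean level under 5%. They had a median of 45 CpGs listed within the 500 bp around them, the measure used here for CpG density. The 818452 other CpGs with any cytosine listed in all 8 mice had a median density of 24 and a mean level of 36.3%.

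Averaged over all members, the strands differed by less than the spread between mice. The mean F level was 12.6, 12.8, 12.9 and 12.9% in knockouts 25, 28, 45 and 46, and 12.9, 12.4, 12.9 and 13.0% in controls 1, 34, 36 and 37, and the mean R level rounded to the same value in each mouse. Their difference, F minus R, averaged -0.0013 ± 0.0091 percentage points (SD, n = 8; exact two-sided sign-flip test over mice, p = 0.71875). The sign turned with read minimums of 10 and 40. The mean furthest from 0 under any setting was -0.0123 points (exact sign-flip p = 0.03125), at the CpGs with no other member 47 to 51 bp away.

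Single CpGs departed from symmetry by more than read counting allows. The mean absolute difference between the strands was 2.98, 3.47, 3.81 and 3.31 points in knockouts 25, 28, 45 and 46, and 3.02, 3.33, 2.76 and 3.11 points in controls 1, 34, 36 and 37. The values of the groups overlapped, with the lowest in control 36 and the highest in knockout 45. Binomial counting at the observed coverage alone gave 0.512 points on average. After the counting variance was subtracted, the spread of F minus R was 11.9 ± 0.925 points (SD over 8 mice). The value differed between classes of coverage: the mean absolute difference was 8.71 points at the 7412 members whose lowest strand coverage was 20 to 24 reads, 7.26 at 25 to 39 reads and 2.68 at 40 or more. Counting error was 1.11, 0.928 and 0.454 points in these classes. They also differed in mean level (38.2, 29.8 and 10.4%) and in median CpG density (23, 32 and 46), and the part of depth was not tested. The 15263 CpGs just outside the rule, with 10 to 19 reads on the lowest strand, had 9.41 points.

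The difference was concentrated at intermediate levels. Its mean was 0.632 ± 0.065 points at the 220112 CpGs with a mean level under 5% and 4.32 ± 0.399 points at the 14807 CpGs with 95% or more. Between these ends it reached 58.7 ± 2.38 points at the 5179 CpGs with a mean level of 40 to 60% (SD over 8 mice). It was 19.2 points at 20 to 40% and 23.5 points at 60 to 80%. Among the CpGs at 40 to 60%, 2956 (57.1%) had strands that differed by 50 points or more in the mean over mice, and 2146 (41.4%) had both strands between 30 and 70%. A mean level near 50% thus included CpGs with intermediate levels on both strands and CpGs whose reads kept C mainly on 1 strand. Whether the low strand of the latter was unmethylated in the cells was not tested.

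Sparse CpGs had larger strand differences than dense ones. The mean absolute difference was 17.97 ± 1.37 points at 1 to 9 CpGs per 500 bp, 9.66 at 10 to 19, 1.90 at 20 to 39 and 0.715 at 40 or more. Dense CpGs were mostly unmethylated, so the comparison was repeated within CpGs at a mean level of 20 to 80%. There the means were 50.98 ± 2.24, 31.7 ± 3.40, 18.05 ± 4.09 and 16.3 ± 3.69 points. The sparsest exceeded the densest class by 34.7 ± 2.16 points, in all 8 mice (exact sign-flip test, p = 0.0078, the smallest that 8 mice allow). Counting error in these classes was 2.62 to 3.43 points. The excess was 6.20 points among CpGs with no other member 47 to 51 bp away.

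**Figure D1:**
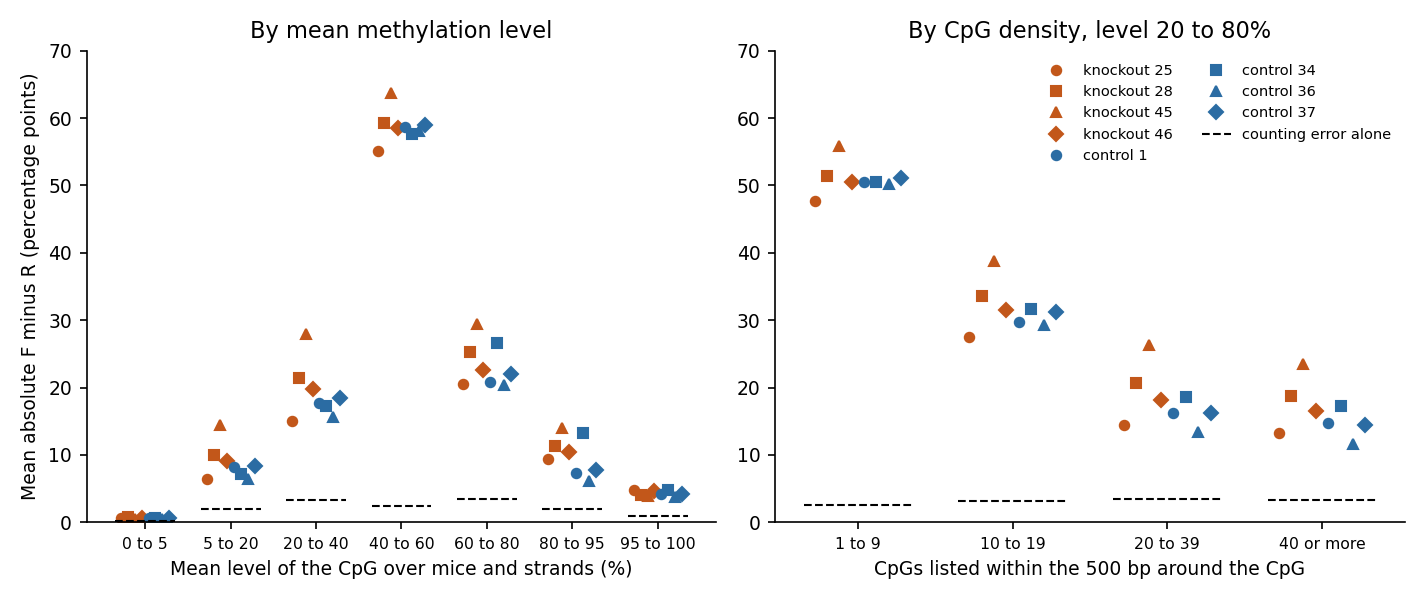
Mean absolute difference between F and R, in percentage points, by mean level of the CpG (left) and by CpG density at a mean level of 20 to 80% (right). Each point is 1 mouse, orange for knockouts and blue for controls, and dashed lines give the mean expected from read counting alone. The 40 to 60% class lies at 55.1 to 63.7 points in the 8 mice and the sparsest density class at 47.7 to 55.8 points.

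Large differences were shared by the mice in place and direction. Each CpG with a mean level of 5 to 95% was tested for an effect of strand in a logistic model with mouse and strand as terms and moderated overdispersion. Of 33790 CpGs tested, 5318 (15.7%) were called at a Benjamini-Hochberg adjusted p under 0.05. F was higher at 2619 (7.75%) and R at 2699 (7.99%), and at 4282 of the called CpGs the sign was the same in all 8 mice. Of the 3590 CpGs that differed by 50 points or more, 3586 were called, and 2569 differed by 80 points or more. The 3590 were chosen by their mean difference over the same mice, so the share of them called is not separate evidence. A difference of the same sign in all 8 mice was found at 13.1% of all CpGs tested. At the 12485 members with a mean level of 20 to 80%, F minus R correlated between mice with r of 0.756 to 0.937, a description over CpGs that share libraries and neighbours.

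At the 3590 CpGs with large differences the higher strand averaged 93.3% and the lower strand 8.78%. The lower strand was at 12.3, 11.4, 7.5003 and 9.72% in knockouts 25, 28, 45 and 46, and at 6.91, 10.7, 5.29 and 6.44% in controls 1, 34, 36 and 37. Knockout 25 was the highest and control 36 the lowest, and the groups overlapped. With the reads of both strands added, as is common for CpG methylation, these sites stood at 50.04%. The SD between mice of a genotype was 7.32 points on the higher strand, 8.57 on the lower and 11.2 for the summed reads.

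Some CpGs were fully discordant, with 1 strand at 20% or less and the other at 80% or more. The number was 2388, 2533, 3181 and 2549 in knockouts 25, 28, 45 and 46, and 2895, 2601, 3062 and 2966 in controls 1, 34, 36 and 37. As a share of members this was 0.889% (95% Wilson interval 0.854 to 0.925%) in knockout 25, the lowest, and 1.18% (1.14 to 1.23%) in knockout 45, the highest. These intervals treat each CpG as independent, although large differences often came in neighbouring pairs, so they are too narrow. The 8 mice shared 1146 discordant CpGs, 576 with F high and 570 with R high, while 1093 were discordant in exactly 1 mouse. Of the 4419 CpGs discordant in at least 1 mouse, 4 changed direction between mice, which the 1093 discordant in only 1 mouse could not do.

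The 5 CpGs named for discordance were fully discordant in every mouse. In Foxo3, a forkhead transcription factor that acts in stem cell quiescence, the CpG at chr10:42189774 had F at 100% and R at 0% in each of the 8 mice, on 53 to 239 reads per strand. Ttll12, a tubulin-tyrosine-ligase-like gene, had F at 100% and R at 0% at chr15:83583847 in all 8 mice. The CpG at chr14:82306636, with no protein-coding gene within 50 kb, did the same. Fcgrt, the neonatal Fc receptor, had F at 0% and R at 100% at chr7:45098877 in all mice, and so did Gm973 at chr1:59619456. Adjusted p of these sites in the strand model lay between 1.68e-10 and 3.01e-10.

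The sites with the smallest p included several pairs of neighbours with opposite signs. In Galnt13, a GalNAc transferase of mucin-type glycosylation, F at chr2:54885801 was 97.5, 97.5, 96.7 and 98.3% in knockouts 25, 28, 45 and 46 and 97.9, 97.7, 97.0 and 97.2% in the controls. R of that CpG was 4.13% in knockout 25 and under 1% in the other mice. At the called CpG 51 bp downstream, F was 0.11 to 4.26% and R 89.6 to 100% in the 8 mice. The strands did not overlap at either CpG, and the differences were 96.7 ± 1.51 and -94.2 ± 4.15 points (adjusted p 5.17e-14 and 1.84e-12). In the pseudogene Gm35498, CpGs 49 bp apart at chr1:85112475 and chr1:85112524 differed by 82.8 ± 22.2 and -98.3 ± 1.75 points. At the first of these, knockout 45 had F at 32.9% and the other mice lay between 87.8 and 100%.

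Other named sites had the sign without such a partner. The CpG at chr4:10137201 had F at 95.9 ± 2.02% and R at 0.162 ± 0.428%, on 921 to 2292 reads per strand. At chr13:44869654 in Jarid2, a component of Polycomb repressive complexes, F was 14.7 ± 1.595% and R 96.5 ± 3.47%, and coverage ran from 112 to 74907 reads per strand. The CpG at chr2:98666262 reached 110645 reads on a strand, with F at 97.8 ± 0.294% and R at 38.6 ± 11.8%. Sites with many times the median coverage may collect reads from near-identical copies, which these tables cannot separate. A CpG in the lncRNA record AY036118, at chr17:39848480, had F at 9.79 ± 2.06% and R at 0.326 ± 0.108% on 22360 to 42891 reads, so its low p came with a difference of 9.46 points.

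Most called CpGs came in pairs at a fixed distance and in a fixed order. Of the 5318 called CpGs, 3961 (74.5%) had a called partner of the opposite sign 47 to 51 bp away, with the CpG of higher F upstream and the CpG of higher R downstream. The opposite order was found for 6 called CpGs. By distance, 232 such CpGs lay 47 bp from their partner, 1054 at 48 bp, 826 at 49 bp, 911 at 50 bp and 938 at 51 bp. The window of 47 to 51 bp was read from these data, so the counts describe it and do not test it.

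The order and distance were also counted by the size of the difference, without use of the calls. This count is not independent of them, since 3586 of the 3590 CpGs that differed by 50 points or more were called. Among pairs of members in which each CpG had a strand at 80% or more, 1246 of the 2483 pairs at 47 to 51 bp (50.2%) had F higher by 50 points or more upstream and R higher by 50 points or more downstream. None of these pairs had the reverse order. At all other distances from 2 to 120 bp, 4 of 21443 pairs had the first order and 1 the reverse. At 46 bp 0 of 210 pairs and at 52 bp 0 of 50 pairs showed the pattern, against 330 of 607 at 48 bp. At each distance from 3 to 46 bp the mean differences had the same signs and were smaller, from 3.07 to 15.8 points upstream and from -17.5 to -3.19 downstream. At 2 bp they were -0.37 and 0.056 points.

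**Figure D2:**
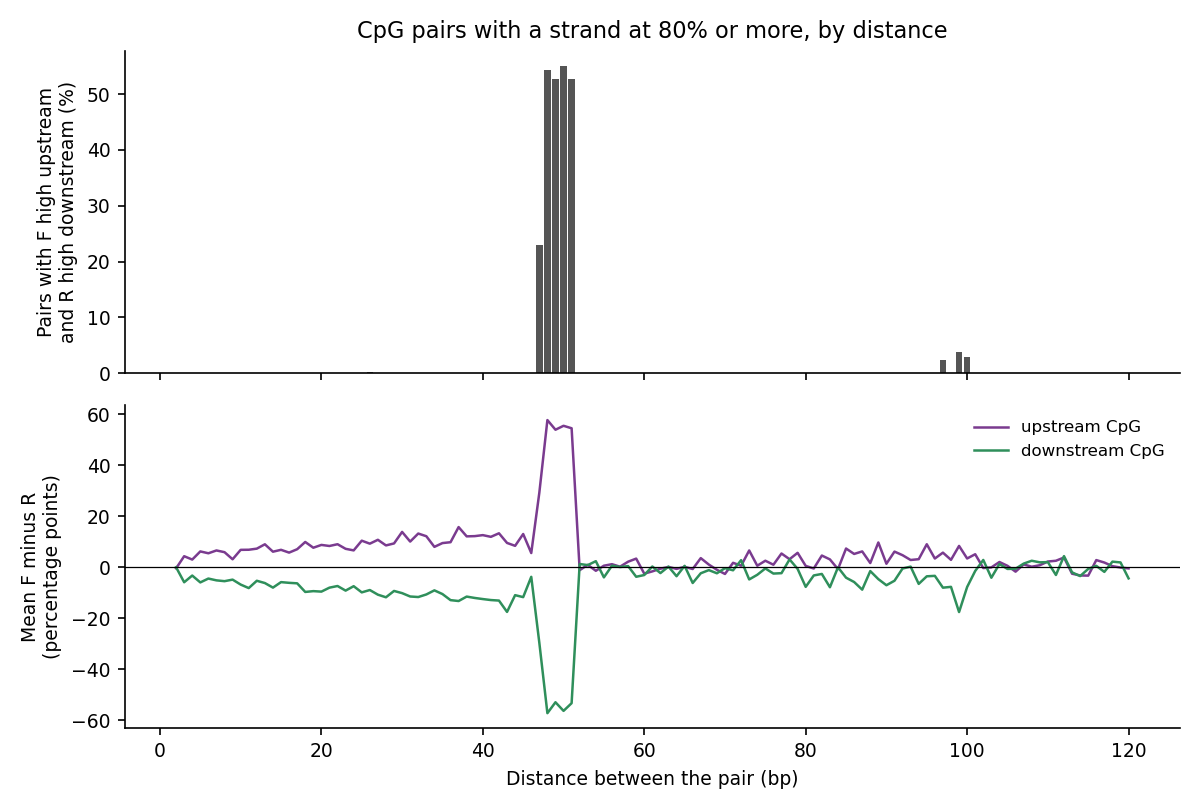
Pairs of member CpGs in which each CpG had a strand at 80% or more, by the distance between them in bp. The top panel gives the percentage of pairs with F higher by 50 points or more upstream and R higher by 50 points or more downstream, and the bottom panel the mean F minus R of the upstream (purple) and downstream (green) CpG in percentage points. The bars stand at 47 to 51 bp, with 4 further pairs at other distances, and 0 at 46 and 52 bp.

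On the outer strands of a called pair most reads kept C, on the inner ones few did, and the CpGs between were symmetric on average. Whether the inner cytosines were unmethylated in the cells was not tested. The upstream CpG averaged 88.6% on F and 12.5% on R, and the downstream CpG 13.2% on F and 88.3% on R. The low strand of the upstream CpG was at 15.9, 14.9, 11.3 and 13.8% in knockouts 25, 28, 45 and 46, and at 11.05, 13.6, 8.76 and 10.5% in controls 1, 34, 36 and 37. Knockout 25 was again the highest and control 36 the lowest. The 2209 members between the partners of called pairs averaged 84.9% on both F and R. Of these 2209, 53 were called, beside 5318 of all 268709 members, and how many were in the tested range was not counted. In 732 of the 1980 pairs no member lay between.

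**Figure D3:**
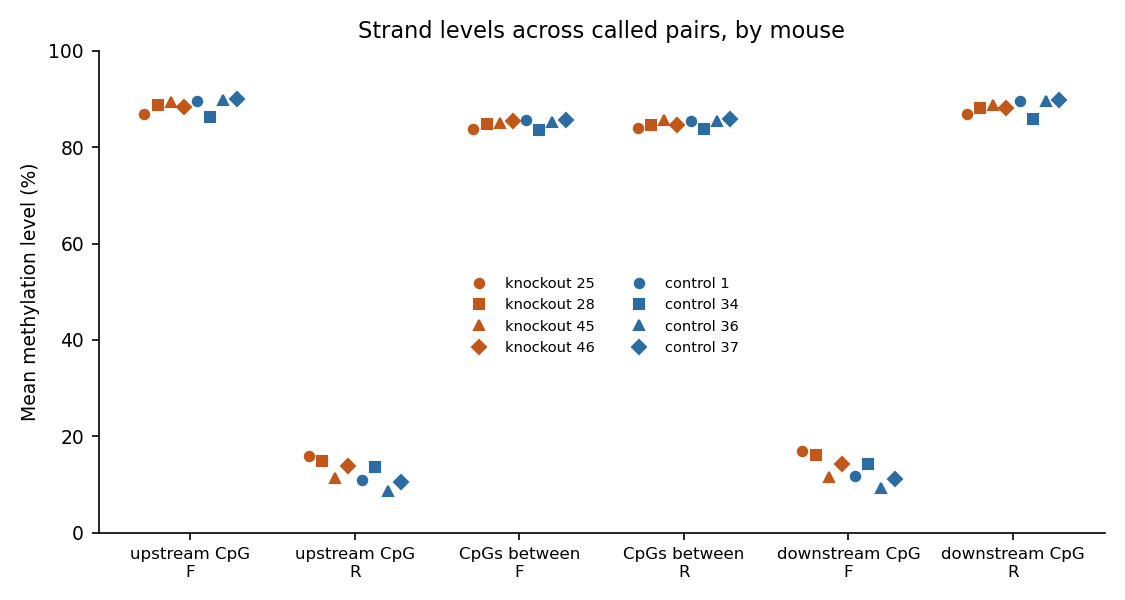
Mean methylation level, in percent, on F and R at the upstream CpG, the CpGs between and the downstream CpG of the called pairs, with 1 point per mouse (orange knockouts, blue controls). In all 8 mice upstream R and downstream F lie between 8.76 and 16.9%, and the other 4 positions between 83.5 and 89.95%.

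Coverage along a strand was nearly equal at the CpGs of a pair. The median ratio of F reads at the downstream to the upstream CpG was 1.02, with mouse medians of 1.01 to 1.05, and the ratio of R reads upstream to downstream was 1.02, with mouse medians of 1.01 to 1.05. Within a CpG, the strand with the higher level had fewer reads, with median ratios of 0.890 upstream and 0.869 downstream. Levels changed little with distance: the low upstream strand averaged 15.96 ± 2.67% at 47 bp and 11.6 to 12.9% at 48 to 51 bp.

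The largest differences were the ones most often paired. A partner was found for 11.2% of the called CpGs that differed by under 20 points, 65.9% at 20 to 50 points, 81.7% at 50 to 80 points and 92.6% at 80 points or more. The sign was also described by position alone. Over all levels and densities, members with another member 47 to 51 bp downstream only had a mean F minus R of 3.83 ± 0.194 points (41021 CpGs), and those with one upstream only had -3.82 ± 0.216 points (40859 CpGs). Sparse members (1 to 9 CpGs per 500 bp) with such a neighbour downstream only had 63.7 ± 2.51 points (1737 CpGs). Those with one upstream only had -62.8 ± 2.66 points (1745 CpGs), and those with neither had -0.08 ± 0.105 points (18093 CpGs; SD over 8 mice). Both mirror-image classes stood far outside the spread between mice.

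Without the CpGs that had a member 47 to 51 bp away, large strand differences were rarer. This left 175610 members, with 25896 in the tested range. The 40 to 60% class fell from 58.7 to 24.6 points and discordant CpGs from 1.03 to 0.163% of members. The mean absolute difference over all levels fell less, from 3.22 to 2.64 points. Called CpGs fell from 5318 of 33790 tested (15.7%) to 703 of 25896 when the model was refitted on this set. The full fit called 1019 of the 25896 (3.93%). At a mean level of 20 to 80% the sparsest class exceeded the densest by 6.20 points in place of 34.7, and over all levels by 8.28 in place of 17.3 (exact sign-flip p = 0.0078 for each).

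Where RefSeq promoter windows gave the sequence, paired differences lay at CCGG. The 31396 windows each run from 250 bases before to 50 after a start site, and 53.5% hold CCGG at least once. In them fell 48793 members, which all read CG in the reference. Among members whose higher strand was at 80% or more, 23 of 91 CpGs in CCGG were called and 20 differed by 50 points or more. Of 179 such CpGs outside CCGG, 2 were called and 1 differed by 50 points or more. All 29 paired calls in the windows lay in CCGG and none outside. The part of end filling in the low strand was not tested. The CCGG content of members outside these windows was not analysed here.

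The printed sequences show the pattern at single sites. At the upstream CpG of Gm38948, inside Bicra, a subunit of the BAF chromatin remodelers, F was 100% in all 4 knockouts and 100, 100, 98.7 and 87.7% in controls 1, 34, 36 and 37. R was 8.8, 0.0, 10.6 and 0.0% in the knockouts and 3.6, 0.0, 3.9 and 0.0% in the controls. The strands did not overlap, with a difference of 94.9 ± 4.9997 points (adjusted p 3.38e-10), and the downstream CpG differed by -79.6 ± 12.2 points. No CpG lies between them in the printed stretch.
At the upstream CpG of Gm11946, inside Smtn, a smooth muscle cytoskeletal gene, F was 95.5 to 100% and R 0.0 to 34.8%. Its downstream CpG, 48 bp on, had F at 0.0 to 33.9% and R at 93.8 to 100%. The upstream CpG of Capn9 had R at 67.8% in knockout 45 and at 0.0 to 16.1% in the other 7 mice, with F at 89.9% or more in all.

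Other promoter pairs were less complete. At Sycp1, R of the upstream CpG was 81.1, 28.4, 33.8 and 48.1% in knockouts 25, 28, 45 and 46 and 13.6, 100, 9.0 and 30.9% in controls 1, 34, 36 and 37. F was 77.4 to 100%, so the strands overlapped, and the difference was 51.7 ± 36.8 points (adjusted p 0.000708). The downstream CpG differed by -81.5 ± 12.1 points with no overlap. At Naa11, R of the upstream CpG was 40.1 to 75.9% and F 96.7 to 100%, a difference of 43.0 ± 11.2 points. By contrast, the Gm52183 CpG outside CCGG had F at 40.6 to 59.3% and R at 93.6 to 100%, with no overlap and a difference of -50.2 ± 8.08 points.

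The 1357 called CpGs without a partner had smaller differences. Their median absolute difference was 22.2 points, against 86.6 points for the paired ones, and the higher strand averaged 72.3% and the lower 37.1%. F was higher at 639 and R at 718. Of these CpGs, 166 lay in 49 runs of 2 or more neighbouring calls, and the 23 runs of 3 or more held up to 8 CpGs.

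Of these 23 runs, 11 with 54 CpGs lay at chr17:39844121-39848664, around Rn18s-rs5, a RefSeq pseudogene related to 18S ribosomal RNA, with 32 to 69682 reads per strand. At the 8 CpGs of chr17:39845961-39846035 F averaged 31.5 ± 7.33% and R 19.5 ± 5.77%, with differences of 1.62 to 28.1 points at single CpGs. The runs of this locus went both ways. At the 7 CpGs of chr17:39848488-39848664 F averaged 12.1 ± 2.33% and R 30.3 ± 4.19%. A run of 7 CpGs in the pseudogene Ap3s1-ps2 (chr8:94405152-94405189) had F at 36.96 ± 15.7% and R at 95.2 ± 3.39%. There F was 22.3, 47.2, 32.7 and 53.0% in knockouts 25, 28, 45 and 46 and 36.5, 10.1, 36.7 and 57.2% in the controls, with R at 88.5% or more in each mouse. In Tmem267, a transmembrane protein gene, a run of 5 CpGs at chr13:119488462-119488485 had F at 80.8 ± 29.4% and R at 44.5 ± 23.0%. Knockout 25 was the lowest there on both strands, with F at 20.9% and R at 6.19%. In every mouse F was above R at this run.

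Calls were fewest near the boundaries of protein-coding genes. Of the CpGs tested, 7.54% were called within 1 kb of either boundary of such a gene, its start or its end. The share was 16.2% elsewhere in their bodies and 19.1% outside them, where other kinds of genes can lie, beside 15.7% of all. The mean absolute difference over members was 1.02, 5.43 and 10.6 points in these contexts, whose mean levels were 2.09, 25.1 and 44.5%.

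Imprinted genes, which carry methylation on 1 parental allele, were compared between strands at their CpGs of intermediate mean level. Of 31 listed genes, 30 were matched in RefSeq and 28 held 470 members within their bounds and 2 kb on each side. All 470 averaged 19.6% on F and 20.4% on R. The 200 of them at 20 to 80% were chosen by the mean of both strands, so their intermediate average follows from the choice. At these 200, F averaged 35.3% and R 36.8%, and 133 CpGs differed by 10 points or less. The median absolute difference was 6.16 points, beside 9.30 at the 12285 other members of that level range. Of the 200, 15 (7.5%) were called, against 35.7% of the others. Paired calls were 2.5% of the 200 and 30.3% of the others, while unpaired calls were 5.0 and 5.397%. Of all CpGs tested, 24.5% were called at 1 to 9 CpGs per 500 bp, against 5.59% at 20 to 39 and 5.95% at 40 or more. Density was not matched between the imprinted genes and the others.

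At Gnas, which encodes the stimulatory G protein alpha subunit, the 60 CpGs of that range averaged 36.3 ± 10.2% on F and 36.1 ± 7.99% on R. F was 24.9, 38.6, 40.6 and 33.3% in knockouts 25, 28, 45 and 46 and R 24.4, 33.2, 41.0 and 40.7%. In controls 1, 34, 36 and 37, F was 48.0, 18.3, 44.2 and 42.7% and R 42.4, 23.8, 43.1 and 40.4%. Mice with a low F value also had a low R value, and the groups overlapped. Plagl1, a zinc finger regulator of growth, had 44.0 ± 8.78% on F and 43.3 ± 8.57% on R at 20 CpGs. Peg3 had 37.7 ± 10.3 and 35.4 ± 13.4% at 3 CpGs that Usp29 shares. Zrsr1 had 42.7 ± 14.4 and 40.1 ± 8.66% at 6 CpGs, and Magel2 33.98 ± 5.92 and 32.9 ± 8.16% at 9 CpGs. Other genes had means further apart. Grb10, an adaptor protein that restrains growth factor signalling, had 28.5 ± 7.15% on F and 40.2 ± 9.17% on R at 40 CpGs, with R higher in 8 of 8 mice. Igf2r, a receptor that clears IGF2, had 38.5 ± 6.76 and 29.8 ± 9.04% at 17 CpGs shared with Airn, with F higher in 7 of 8 mice. Mkrn3 had 24.3 ± 10.8 and 35.5 ± 8.81% at 6 CpGs, with R higher in 7 of 8 mice, and the single CpG of Igf2 had 68.998 ± 17.999 and 46.1 ± 30.6%. The single CpG of Dlk1, a Notch ligand-like protein gene, had 1.62 ± 4.59 and 39.1 ± 11.3%, with R higher in 8 of 8 mice.

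Of the 242 tested CpGs of imprinted genes 7.02% were called, beside 15.7% of all tested, with density not matched. These were 17 CpGs, 5 with F and 12 with R higher. The number fell to 10 without knockout 45, to 11 without control 37, and to 9 and 6 with limma on log ratios with 1 and 0.5 reads added. Among them were 3 pairs of the kind described. At Inpp5f, an inositol phosphatase gene, CpGs 48 bp apart differed by 95.4 ± 5.0001 and -97.1 ± 4.81 points. In Gnas a pair 49 bp apart differed by 36.3 ± 13.6 and -25.9 ± 17.5 points, and Mkrn3 held the third. Grb10 had 7 of the 12 calls with R higher. At 6 of them, at chr11:12026391-12026455, F averaged 22.2 ± 7.80% and R 41.6 ± 11.7%. The Grb10 calls rested on few mice: leaving out 1 mouse at a time gave 0 (without knockout 45) to 8 calls, with 1 without control 34, 2 without control 37 and 4 without control 1, and limma gave 1 or 0. At Dlk1, a Notch-pathway ligand, 1 CpG had F at 0.0% in 7 mice and 13.0% in knockout 28, with R at 23.3 to 57.6%.

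**Figure D4:**
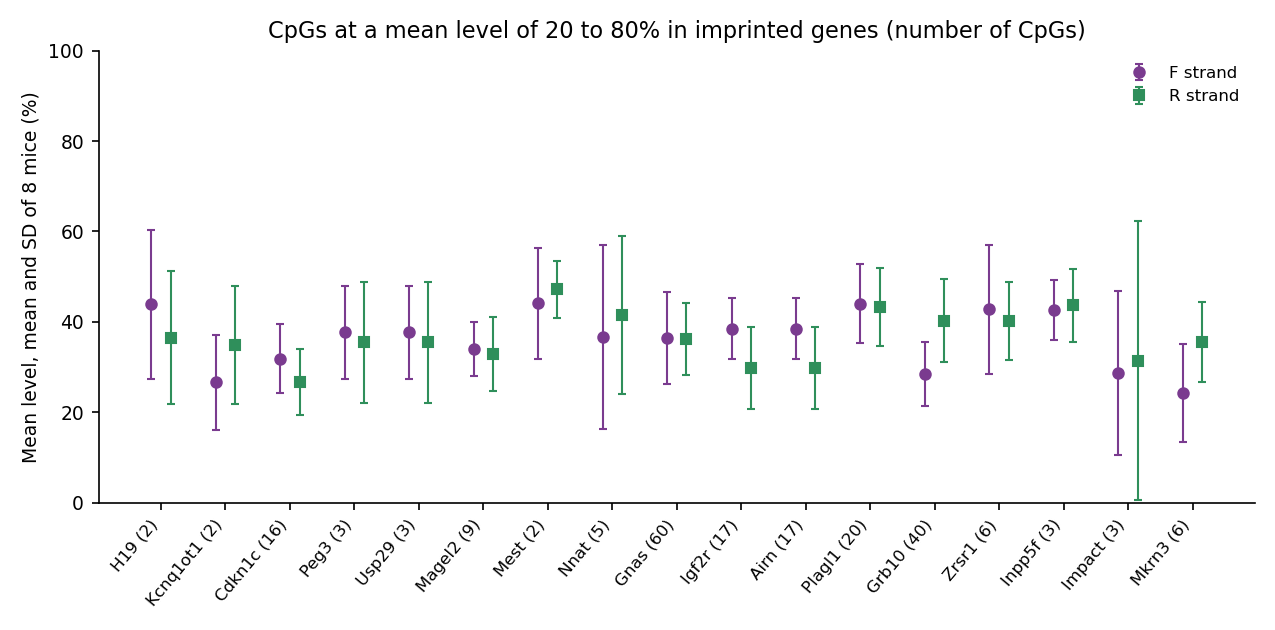
Mean methylation level in percent on F (purple circles) and R (green squares) of members at a mean level of 20 to 80% in imprinted genes with 2 or more such CpGs, whose number stands in brackets, as mean and SD of 8 mice. Peg3 and Usp29 share their CpGs, as do Igf2r and Airn. F and R come from the same mice; R is higher in 8 of 8 mice at Grb10 and F is higher in 7 of 8 at Igf2r, while Gnas and Plagl1 have means within 1 point.

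The listed genes of the machinery that copies, adds or removes CpG methylation had few members in the tested range. Their members averaged 6.25%, beside 12.8% for all members, with 39.3% at Uhrf1 and 33.9% at Dnmt1. Of 17 listed genes, all matched, 16 held 454 members and 16 CpGs were in the tested range, of which 4 (25%, beside 15.7% of all tested) were called, all of them paired. In Dnmt1 the CpG at chr9:20920706 had F at 95.1% or more in the 8 mice and R at 0.0 to 20.1%, a difference of 91.1 ± 8.62 points (adjusted p 1.37e-09). Its partner 50 bp downstream had F at 0.0 to 16.9% and R at 96.3 to 100%. In Dnmt3b, a de novo methyltransferase gene, CpGs at chr2:153686573 and chr2:153686622 differed by 69.4 ± 14.1 and -93.8 ± 6.56 points. No CpG was called in Uhrf1, Uhrf2, Dnmt3a, Tet1, Tet2 or Tet3, where 10 CpGs in all were in the tested range.

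Strand and mouse could be compared as sources of variation. At a mean level of 20 to 80%, the strands of a CpG in 1 mouse differed by 36.9 points on average (33.3 to 43.2 over mice). The same strand differed between mice of a genotype by 15.3 points (9.69 to 20.3 over 24 combinations of mouse pair and strand). The strand difference was thus larger than the difference between mice in this range of levels. Among CpGs with no other member 47 to 51 bp away, the strands exceeded the mice by 0.465 points.

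Knockouts and controls did not differ in strand symmetry beyond the spread between mice. The mean absolute difference was 3.39 ± 0.347 points in knockouts and 3.06 ± 0.236 in controls (SD, n = 4 each), a difference of 0.335 points with a 95% interval of -0.355 to 1.04 (exact two-sided permutation test, p = 0.2). The spread beyond counting error was 12.2 ± 1.28 and 11.6 ± 0.318 points (p = 0.4857 by the same exact test). Discordant CpGs were 0.991 ± 0.131% and 1.07 ± 0.074% of members (exact permutation p = 0.3714). The part of F minus R that was specific to a mouse, as an SD at a mean level of 20 to 80%, was 15.8, 21.5, 26.2 and 17.96 points in knockouts 25, 28, 45 and 46. It was 14.4, 20.6, 12.5 and 15.2 points in controls 1, 34, 36 and 37, and the groups overlapped (exact permutation p = 0.1429). Over the 15 measures compared, the smallest exact permutation p was 0.1143, with an adjusted value of 0.476, and 4 against 4 mice cannot give less than 0.0286. These intervals do not show that the groups were alike.

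**Figure D5:**
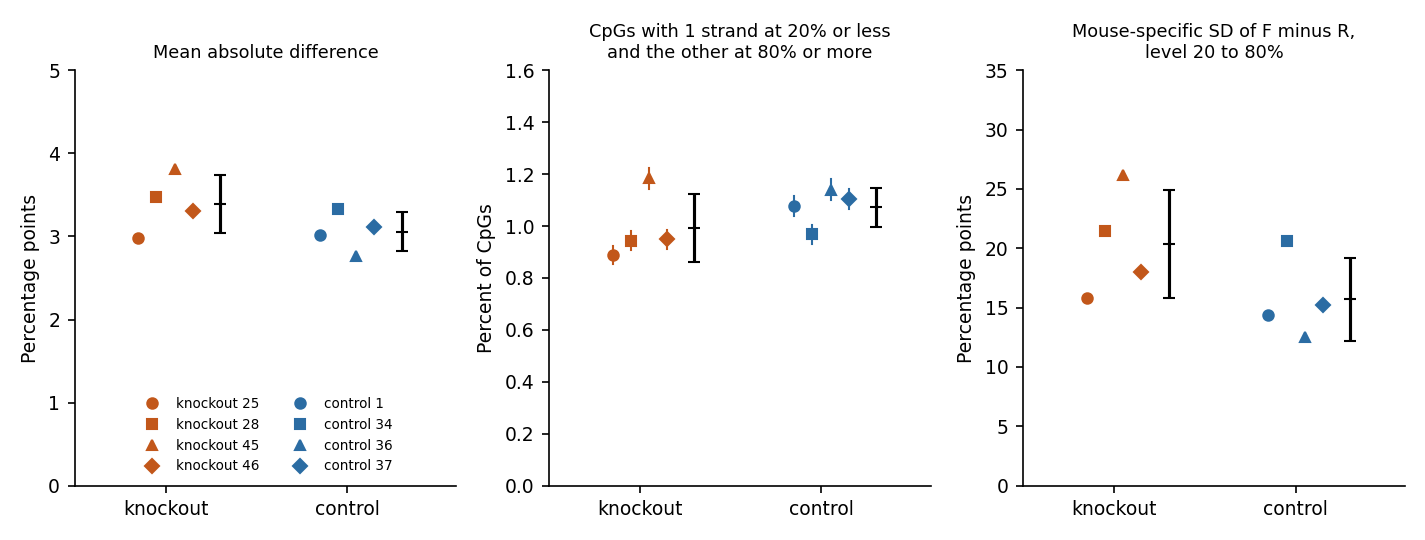
Mean absolute difference between strands in percentage points (left), percentage of members with 1 strand at 20% or less and the other at 80% or more (middle, with 95% Wilson intervals) and SD of the mouse-specific part of F minus R in percentage points (right). The Wilson intervals treat each CpG as independent and are too narrow. Each coloured point is 1 mouse, with the symbols named in the left panel, and the black bars give the mean and SD of 4 mice. Knockout 45 is the highest in all 3 panels, and the groups overlap in each.

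No CpG passed the test for a strand difference that depended on genotype. At an adjusted p under 0.05 the moderated model called 0 of 33790 (0.0%), the unmoderated model 0 and limma 0, and an unadjusted p under 0.05 was reached by 1635 (4.84%), 1855 and 1618. In the moderated model 2.47% of CpGs had F minus R higher and 2.37% lower in knockouts at that unadjusted p. The site with the smallest p for a higher F minus R in knockouts was chr17:39844814, near Rn18s-rs5, where the difference was -5.68 points in knockouts and -7.83 in controls. In Fendrr, a lncRNA, it was 15.5 and -13.5 points at chr8:121080881. F there was 50.8% in knockout 45 and 0.0 to 11.4% in the other mice. At Cdcp2 it was -10.9 and -12.5 points, where F was 50% in control 34, 76.7% in knockout 45 and 79.6% in knockout 46, and F and R were 100% otherwise. The control value thus came from control 34 alone, and the sign of the contrast turned without knockout 25 or 28. In the other direction, chr1:136789397 in the pseudogene Gm8762 had F at 50, 45.3, 36.4 and 69.6% in the knockouts and 91.3, 100, 100 and 100% in the controls. R there was 87.8 to 100% in the knockouts and 68.6 to 89.4% in the controls. F did not overlap between the groups, but the site was chosen for a small p of this contrast. The share of all tested CpGs without overlap was not counted. The contrast was -60.8 points (unadjusted p 0.000104, adjusted p 0.987 in the moderated model). At chr18:85621265 and at chr14:76458359 in Tsc22d1 the contrast was -63.7 and -21.9 points, also with an adjusted p of 0.987.

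Genotype was also tested on each strand by itself. The moderated model called 0 CpGs on F and 0 on R (0.0% each), and no other tool was run. On F 2693 CpGs (7.97%) and on R 2645 (7.83%) had an unadjusted p under 0.05. The strands shared 280 of them (0.829% of CpGs tested), which was 10.4% of the F list and 10.6% of the R list. At 209 of the shared CpGs both strands moved the same way, 120 lower and 89 higher in knockouts. Strands of 1 mouse share cells and library, so they are not independent samples of a genotype.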

How the data were processed

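Per the labels, libraries were made by ERRBS with a size selection changed for low input. The submitters' processing notes name the build mm10 and the tools Bismark and CASAVA 1.8.2. Trimming, duplicate handling and read length: not given in the sources used here. Per the file headers, the deposited coverage is a count of reads per cytosine and the deposited methylation values are the percent of these reads showing C or T.

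Methylated reads were recovered as coverage times percent, rounded. Members and gene lists were chosen with earlier results of these data known. The sites named by rule were the 5 smallest p with F higher and with R higher, 5 CpGs discordant in most mice, and the 3 smallest p for genotype by strand in each direction. Promoter sites, runs, pairs and list genes shown beyond these were chosen after their values were seen.

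Quasi-binomial models on CpGs with a mean level of 5 to 95% used overdispersion moderated by squeezeVar of limma 3.58.1 (R 4.3.3) with a floor of 1, and Benjamini-Hochberg adjustment. They were tested on simulated data, where unadjusted p under 0.05 came somewhat more often than the nominal share. Per-mouse values were compared by exact permutation over 70 arrangements or by exact sign flips. Intervals are at 95%. Genes came from RefSeq (GRCm38.p6, the mm10 build). Alternatives were 10 or 40 reads, the highest 0.1% of coverage left out, other models, limits and weights, and each mouse left out. The set without neighbours at 47 to 51 bp and the alternatives for gene lists, named sites and mean level were chosen after seeing the data.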

Additional observations from a re-analysis of the deposited data

Results flagged for a closer look

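In the density class of 20 to 39 CpGs per 500 bp, control 36 had a mean absolute strand difference of 1.48 points, apart from the other controls at 1.79 to 1.84 points. The gap to its nearest neighbour was 0.845 of the range of the 4 controls. Of 32 groups of 4 mice examined this way, 1 had such a sample, and chance gives about 1 in 20.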

How the results depend on the processing

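The mean signed strand difference turned to 0.0025 points at 10 reads and 0.0046 at 40 reads, and ran from -0.0037 to 0.00047 with 1 mouse left out. With 10 reads the mean absolute difference was 3.56 points and discordant CpGs 1.18%. With 40 reads they were 2.68 points and 0.764%, the spread beyond counting error was 10.3 points and the 40 to 60% class stood at 55.5 points. Weighting by reads gave 2.79 points, and limits of 10 and 90% gave 0.776% discordant CpGs.

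Without CpGs that have a neighbour at 47 to 51 bp, the mean signed difference was -0.0123 points (exact sign-flip p = 0.03125), the mean absolute difference 2.64 points and the spread 7.60 points. Discordant CpGs were 0.163%, with a genotype difference of 0.041 points that turned sign. The 40 to 60% class was 24.6 points and strands exceeded mice by 0.465 points. Of the 703 CpGs called, 1 lay in imprinted genes and 0 in the listed genes of the methylation machinery. In imprinted genes limma called 9 and 6 CpGs, and leaving out 1 mouse gave 10 to 17. The contrast at chr4:107105066 turned to -2.07 points without knockout 25 or 28, and ran up to 5.74 points with 1 mouse left out; without control 34 its mean level passed 95% and it was not tested.

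Called CpGs were 6207 at 10 reads, 3773 at 40 reads, 5094 without the highest coverage, 5085 unmoderated, 4912 and 4857 with limma, 6954 at levels of 1 to 99%, and 5126 to 5261 with 1 mouse left out. No paired analysis was possible because no replicate number occurs in both groups.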
